A study of Arabidopsis thaliana with 6 samples.

Results

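The 39 genes described here encode proteins of the cytosolic ribosome of Arabidopsis thaliana. They are a fixed set of RPL, RPS and RPP0 genes, 25 for the large and 14 for the small subunit, taken by locus from count tables that list 38189 genes. Transcript levels came from RNA sequencing of 2 genotypes, the hb34 mutant (3 libraries) and wild-type Columbia (WT, 3 libraries). HB34 is a zinc finger homeodomain transcription factor gene. All plants were 10 days old, had mock treatment per the labels, and grew on Murashige and Skoog medium at 22 °C, under days of 16 h light and 8 h dark. The labels give the tissue as leaves and the extraction protocol gives seedlings. Neither the kind of hb34 allele nor the origin of a genotype's libraries (separate pools of plants or not) is stated, so p-values measure the spread between these libraries.

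A cytosolic ribosome holds ribosomal RNA and a large set of small, abundant proteins. The small subunit decodes the messenger RNA and the large subunit forms the peptide bond. In Arabidopsis almost every ribosomal protein is encoded by several genes, and loss of some of them delays growth or gives narrow, pointed leaves. Their transcripts are known to be most abundant in young, dividing tissue.

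The libraries held 17562497 to 19670468 counts, and 17905 genes had enough counts to be tested. HB34 itself had 19, 43 and 23 counts in hb34, against 1571, 1547 and 1821 in WT (log2 fold change -5.90, SE 0.254, edgeR quasi-likelihood test adjusted p = 0.000419). Fold changes are hb34 minus WT throughout. Of all tested genes, 675 rose and 447 fell at an adjusted p under 0.05 (536 and 615 with upper quartile scaling). Replicate 2 of hb34 stood apart from the rest on the first principal component, at 82.1, against 8.53 and 17.6 in the other hb34 libraries and -41.2, -41.2 and -25.8 in WT. Root markers were nearly absent, since 0 of 14 could be tested and together they had 6, 36 and 29 counts in hb34, against 2, 0 and 7 in WT. The 8 green leaf markers summed to 75275 to 84813 CPM (counts scaled to a common library size with TMM) in hb34, against 81360 to 91453 CPM in WT, and 2 of them, LHB1B1 and DRT112, fell (log2 fold changes -1.09 and -0.42). The count was 0 when WT replicate 1 or 2 was dropped or with the replicate block, and 1 when any other library was dropped. In the runs with 0, 0.011% to 0.0168% of all genes were lower, against 2.5% with all libraries and no block. The median of the 8 was -0.32, and 5 lay below WT in all hb34 libraries, against 17.5% of all tested genes, while RCA lay above WT in all of them (0.53, edgeR adjusted p = 0.127).

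Most cytosolic ribosomal protein genes lay modestly below WT in hb34, and few did so beyond the spread of the libraries by the test across all genes. All 39 had enough counts to be tested, with 680 to 9617 counts in a library. Of these, 2 fell and 0 rose at an adjusted p under 0.05, which is 5.13% lower, against 2.5% lower and 3.77% higher among all tested genes. The log2 fold change was negative for 37 of 39 genes, against 49.1% of all tested genes. Its median over the 39 was -0.37, or 77.5% of the WT level, with quartiles of -0.45 and -0.24, against a median of 0.01 over all tested genes. At an unadjusted p under 0.05, 26 were lower and 0 higher, which is 66.7%, against 13.3% lower among all tested genes. All 3 hb34 libraries lay below all 3 WT libraries for 25 genes (64.1%), against 17.5% of all tested genes, and 0 of the 39 had all hb34 libraries above WT, against 17.8%. DESeq2 called 12 lower and 0 higher, where it called 5.81% of all genes lower and 9.27% higher, and limma-voom called 2 lower, against 2.33%. In bulk RNA fewer cells of a type and less RNA per cell cannot be told apart.

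Summed over the 39 genes, the transcripts made up 0.746, 0.715 and 0.733% of all counts in hb34, against 1.00, 0.872 and 0.811% in WT. On the CPM scale the sum was 7304, 7428 and 7140 in hb34, against 9762, 9077 and 8093 in WT, or 7291 ± 144 in hb34 and 8977 ± 839 in WT (SD, n = 3 each). The hb34 libraries lay close together and below every WT library, while the WT libraries were spread widely. The median of the 39 genes relative to the WT mean was -0.37, -0.34 and -0.36 (log2) in hb34 replicates 1, 2 and 3, against 0.14, 0.02 and -0.18 in WT replicates 1, 2 and 3. WT replicate 1 held the highest value of 33 of the 39 genes, and hb34 replicate 3 held the lowest value of 18. Without WT replicate 1 the median log2 fold change was -0.30 and 0 of the 39 passed, against 0.011% of all genes called lower. Without hb34 replicate 2, the library that stood apart, it was -0.37 and 2 passed, against 2.77%.

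**Figure D1:**
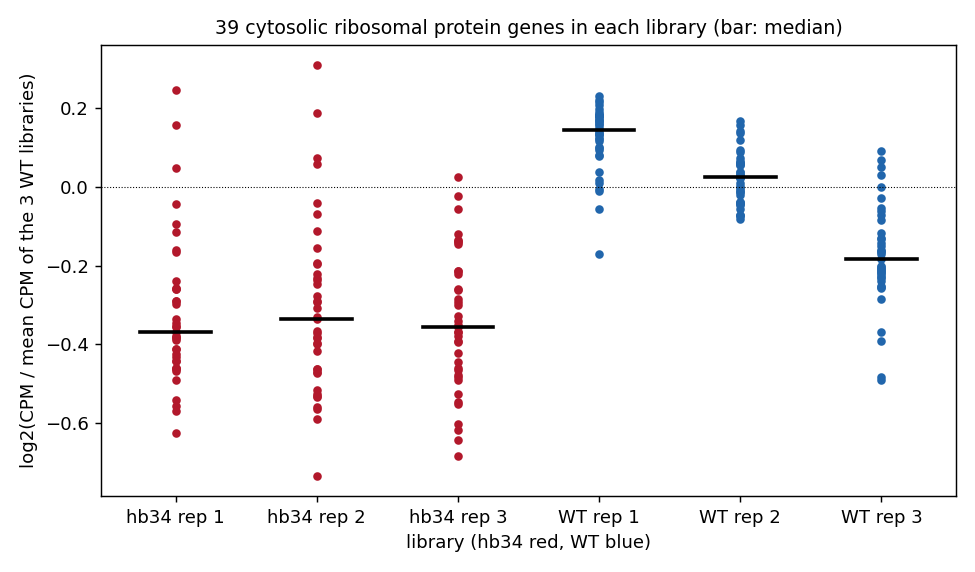
Level of each of the 39 cytosolic ribosomal protein genes in each library, as the log2 of its CPM over the mean CPM of the 3 WT libraries (vertical axis), with 1 point a gene, a bar for the median, hb34 in red and WT in blue. The hb34 medians lie between -0.37 and -0.34, below those of all WT libraries, of which replicate 3 is the lowest at -0.18.

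Markers of dividing cells were low in every library. The 13 markers summed to 38.2, 38.8 and 37.3 CPM in hb34, against 41.6, 38.01 and 45.8 CPM in WT, so the groups overlapped. Of the 11 with enough counts, 0 passed in edgeR, 0 in DESeq2 and 0 in limma-voom, and 2, PCNA1 and PCNA2, had unadjusted p-values under 0.05, both lower, against 13.3% lower among all tested genes. Of the 11, 4 had a positive log2 fold change, up to 0.57 for ANT, and 7 a negative one, against 49.1% negative among all tested genes. Without overlap 1 lay above WT and 3 (27.3%) below, against 17.8% above and 17.5% below among all tested genes. The median was -0.23, and the part of dividing cells in the ribosomal protein values was not tested.

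The small subunit set was led by RPS21B, whose protein has no bacterial counterpart. RPS21B (gene-AT3G53890, chromosome 3, 19955344 to 19956449, minus strand, TAIR10.1) had 74.97, 80.97 and 74.03 CPM in hb34, against 131, 117.5 and 98.6 CPM in WT. The hb34 libraries were alike and all lay below the lowest WT library. RPS21B fell by 0.59 on the log2 scale (SE 0.131, edgeR adjusted p = 0.0435), the largest fold change among the 39. The call was kept in 12 of 18 alternatives, with adjusted p from 0.00542 to 0.304, and was lost without WT replicate 1, WT replicate 2, hb34 replicate 1 or hb34 replicate 3 in turn, with the replicate block and with an exon length term.

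The other gene that passed was RPL28A of the large subunit, known from mutants that strengthen the leaf polarity defects of asymmetric leaves plants. RPL28A (gene-AT2G19730, chromosome 2, 8511486 to 8513291, plus strand) had 155.5, 165 and 133 CPM in hb34, against 226, 212 and 204 CPM in WT. The highest hb34 library stayed below the lowest WT library, and here the WT libraries were the closer group. RPL28A fell by 0.50 on the log2 scale (SE 0.116, edgeR adjusted p = 0.0484). This call was kept in 8 of 18 alternatives, with adjusted p from 0.0106 to 0.505. Leaving out any library other than hb34 replicate 2 ended it, as did the analyses with library size only, without the filter, with legacy dispersions, with the replicate block and with the exon length term.

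RPL36B and RPL14A, 2 further large subunit proteins that bacteria lack, had fold changes of like size but did not pass. RPL36B had 95.0, 84.8 and 111 CPM in hb34, against 164, 158.5 and 101 CPM in WT (log2 fold change -0.54, SE 0.201, edgeR adjusted p = 0.128). WT replicate 3 lay inside the hb34 range, so the groups overlapped. RPL14A had 36.5, 36.4 and 38.97 CPM in hb34, against 60.97, 59.01 and 40.9 CPM in WT (log2 fold change -0.52, SE 0.167, edgeR adjusted p = 0.0943). Its groups did not overlap, but WT replicate 3 came close to hb34.

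At the other end, both genes for RPL4, a core protein that lines the exit tunnel for the growing peptide, were the 2 with a positive fold change. RPL4A had 219, 229 and 177 CPM in hb34, against 164, 193 and 196.5 CPM in WT (log2 fold change 0.17, SE 0.134, edgeR adjusted p = 0.409). RPL4D had 252, 257 and 229.8 CPM in hb34, against 217, 224 and 237 CPM in WT (log2 fold change 0.12, SE 0.0986, edgeR adjusted p = 0.423). For both genes hb34 replicates 1 and 2 lay above WT, and hb34 replicate 3 lay inside the WT range. RPP0B, at the base of the stalk that recruits elongation factors, had 297, 318 and 262 CPM in hb34, against 304.5, 296 and 317 CPM in WT (log2 fold change -0.06, SE 0.107, edgeR adjusted p = 0.71), so its groups overlapped.

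**Figure D2:**
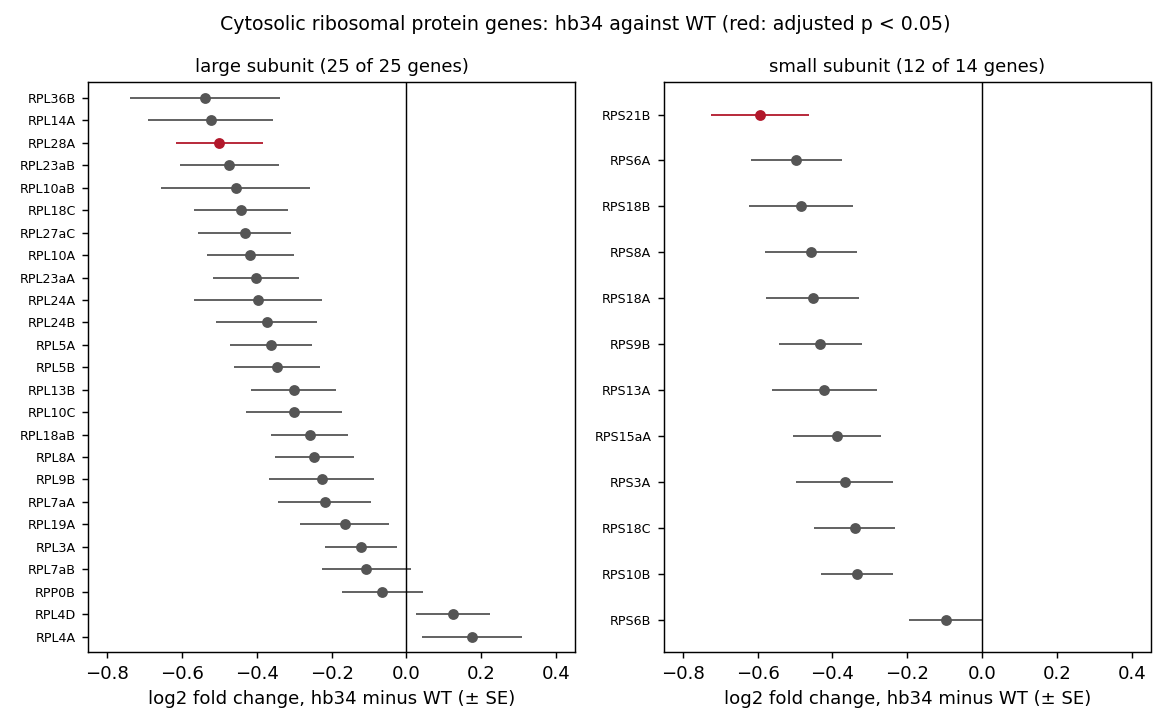
Log2 fold change, hb34 minus WT, of 37 of the 39 genes with its standard error (horizontal axis), for the large subunit on the left and the small subunit on the right, ordered by size (red: adjusted p under 0.05). Values run from -0.59 for RPS21B to 0.17 for RPL4A, and RPS21B and RPL28A are the 2 in red.

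By subunit, the 25 large subunit genes had 1 lower call, 23 negative fold changes, 13 genes without overlap (all lower) and a median of -0.34. The 14 small subunit genes had 1 lower call, 14 negative fold changes, 12 without overlap (all lower) and a median of -0.40. The summed CPM of the large subunit genes was 83.2% of WT and that of the small subunit genes 77.6%. Among all tested genes 2.5% had a lower call, 17.5% lay below WT without overlap and 49.1% had a negative fold change, so 1 call among the 25 is near the share of all genes, and 1 among the 14 is a single gene. The difference between the subunits was not tested.

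Among large subunit genes with a second copy in the set, RPL5 carries the 5S ribosomal RNA. RPL5A had 322, 346 and 332 CPM in hb34, against 482.5, 407 and 395 CPM in WT (log2 fold change -0.36, edgeR adjusted p = 0.086). RPL5B had 223, 223.5 and 218 CPM in hb34, against 319, 274 and 251 CPM in WT (log2 fold change -0.34, edgeR adjusted p = 0.102). Both lay below WT in all hb34 libraries. RPL23a sits at the tunnel exit. RPL23aA had 157, 144 and 152 CPM in hb34, against 219.6, 203 and 175.5 CPM in WT (log2 fold change -0.40, edgeR adjusted p = 0.0756). RPL23aB had 62.3, 62.8 and 54.0 CPM in hb34, against 91.9, 85.0 and 71.7 CPM in WT (log2 fold change -0.47, edgeR adjusted p = 0.0719). Neither had overlapping groups, and WT replicate 3 was the lowest WT library for both.

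RPL24 bridges the subunits, and its B copy is known to help ribosomes start again on messages with upstream reading frames. RPL24A had 68.8, 65.5 and 81.8 CPM in hb34, against 106, 105 and 73.4 CPM in WT (log2 fold change -0.40, edgeR adjusted p = 0.170). RPL24B had 119, 129.6 and 130.5 CPM in hb34, against 188, 166 and 137 CPM in WT (log2 fold change -0.37, edgeR adjusted p = 0.120). The groups overlapped for RPL24A and did not for RPL24B. RPL10 joins late in the maturation of the large subunit, and RPL10A also acts in antiviral signalling through the kinase NIK1. RPL10A had 309, 317 and 311 CPM in hb34, against 465.5, 426 and 360.0 CPM in WT (log2 fold change -0.42, edgeR adjusted p = 0.0719). RPL10C had 85.7, 100.4 and 94.0 CPM in hb34, against 123.5, 123 and 99.0 CPM in WT (log2 fold change -0.30, edgeR adjusted p = 0.166). RPL10A lay below WT in every hb34 library, while hb34 replicate 2 crossed the lowest WT value of RPL10C. RPL7a is a protein of the large subunit without a counterpart in bacteria. RPL7aA had 140.2, 154 and 148 CPM in hb34, against 195, 170.5 and 149 CPM in WT (log2 fold change -0.22, edgeR adjusted p = 0.271). RPL7aB had 254, 251 and 249.6 CPM in hb34, against 313, 258 and 243 CPM in WT (log2 fold change -0.11, edgeR adjusted p = 0.565). Both overlapped between genotypes.

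The other large subunit genes had log2 fold changes from -0.46 to -0.12. RPL3A and RPL8A, at the peptidyl transferase centre, had -0.12 and -0.25, and RPL19A, which helps to join the subunits, had -0.16. RPL10aB, known as PIGGYBACK1 from leaf polarity screens, had -0.46, but its groups overlapped. RPL18C and RPL27aC had -0.44 and -0.43 without overlap, and both passed in DESeq2.

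Among small subunit genes, RPS18A, RPS18B and RPS18C encode the same protein, and RPS18A is the POINTED FIRST LEAF gene. RPS18A had 79.7, 85.8 and 79.7 CPM in hb34, against 123, 117 and 96.2 CPM in WT (log2 fold change -0.45, edgeR adjusted p = 0.0684). RPS18B had 92.7, 80.02 and 81.02 CPM in hb34, against 133, 123 and 99.3 CPM in WT (log2 fold change -0.48, edgeR adjusted p = 0.075). RPS18C had 111, 118 and 113 CPM in hb34, against 146, 157 and 130.1 CPM in WT (log2 fold change -0.34, edgeR adjusted p = 0.094). Every hb34 library lay below every WT library for all 3 genes. RPS13A, another pointed-leaf gene, had a log2 fold change of -0.42, RPS3A at the entry of the messenger RNA -0.37, RPS10B -0.33 and RPS15aA -0.39, all without overlap and without passing the test.

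Between genes, levels are compared as CPM per kilobase of exon. RPS8A was the highest of the 39, with a level of 294 in hb34 and 404 in WT, followed by RPS9B at 256 in hb34 and 345 in WT and RPL10A at 247 in hb34 and 329.9 in WT. RPS8A had 327, 327 and 332 CPM in hb34, against 495, 480.1 and 379 CPM in WT (log2 fold change -0.46, SE 0.123, edgeR adjusted p = 0.0651). RPS9B had 358, 364 and 319.9 CPM in hb34, against 509.8, 472 and 424.5 CPM in WT (log2 fold change -0.43, SE 0.111, edgeR adjusted p = 0.0591). Both had all hb34 libraries below WT, and both passed in DESeq2. RPL14A was the lowest, at 46.4 CPM per kilobase in hb34 and 66.7 in WT, with RPL23aB at 65.8 in hb34 and 91.4 in WT and RPL24A at 74.3 in hb34 and 97.8 in WT. Genes at both ends of this range had lower means in hb34.

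The fold changes of the ribosomal protein genes ran alongside a trend with exon length that covered all genes. Among all tested genes the median log2 fold change was -0.33 for exon lengths under 1000 bases (2210 genes), -0.17 from 1000 to 1500 bases, -0.03 from 1500 to 2000 bases, 0.14 from 2000 to 3000 bases and 0.48 from 3000 bases on (2379 genes). The 39 genes are short, with 12, 20 and 7 of them in the 3 shortest classes and medians there of -0.46, -0.32 and -0.30. Genes with a mean CPM at or above the lowest of the 39 had medians of -0.42, -0.23 and -0.06 in those classes. The distance of the 39 from these medians was smallest in the shortest class and largest in the longest of the 3. The 39 and the other ribosomal protein genes at that level were not left out of these medians. They rest on 380, 849 and 937 genes in the 3 classes, so in the shortest class the comparison is partly with ribosomal protein genes themselves. Across the 39 genes, fold change and exon length had a Pearson r of 0.54 and a Spearman rho of 0.53, a description over genes of the same 6 libraries.

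The length trend was not even over the libraries of a genotype. For genes under 1000 bases the median relative to the WT mean (log2) was -0.35, -0.43 and -0.20 in hb34 replicates 1, 2 and 3, against 0.10, 0.09 and -0.17 in WT replicates 1, 2 and 3. In WT replicate 3, the WT library with the lowest ribosomal protein sum, short genes were thus also low. For genes of 3000 bases and longer it was 0.48, 0.62 and 0.32 in hb34, against -0.12, -0.07 and 0.21 in WT. Exon length ran with genotype, so a difference along length between libraries and one between genotypes cannot be told apart.

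With each library's smoothed deviation along exon length as an offset in the edgeR fit, chosen after seeing the data, 0 of the 39 genes passed in either direction, against 1.3% of all genes lower. The median log2 fold change of the 39 was then -0.14, with 30 negative and 9 positive values, against 49.3% negative among all genes. At an unadjusted p under 0.05, 8 were lower and 0 higher, which is 20.5%, against 10.8% lower among all genes. These 8 were RPL5A, RPL10A, RPL18C, RPL23aA, RPS6A, RPS8A, RPS9B and RPS15aA. In the 3 length classes the medians of the 39 were -0.14, -0.07 and -0.21. The offset takes out any genotype difference that runs along length.

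**Figure D3:**
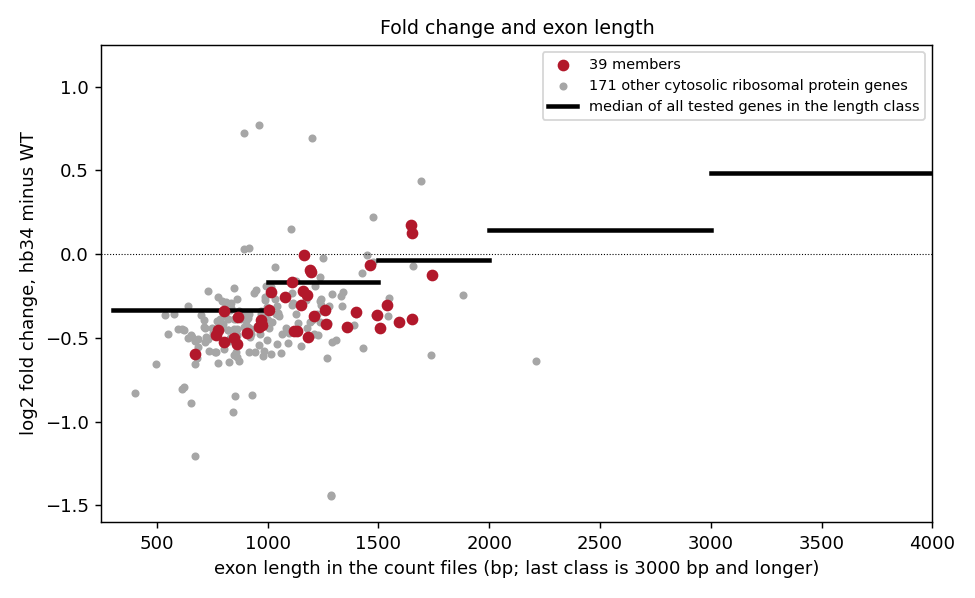
Log2 fold change, hb34 minus WT (vertical axis), against exon length in bases as the count files give it (horizontal axis), with the 39 genes in red, 171 other tested cytosolic ribosomal protein genes in grey, and bars for the median of all tested genes in each length class. The bars climb from -0.33 under 1000 bases to 0.48 from 3000 bases on, and the red points lie at the short end.

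Genes for the same protein allow a comparison within a library. The families with more than 1 of the 39 genes gave 10 pairs that are described here. In 3 pairs the log2 ratio of the copies did not overlap between genotypes, those of RPS6, RPL7a and RPS18A with RPS18C, and in the other 7 it did. With 3 against 3 libraries the smallest p of an exact two-sided permutation test is 0.1, which those 3 pairs reached (0.333 after Benjamini-Hochberg adjustment over 10 pairs), so no pair could pass. The largest difference among these 10 was that of RPS6, the target of the S6 kinase in the TOR pathway. The 250 bases before the RefSeq gene start of RPS6A and RPS6B (build TAIR10.1, both on the minus strand, 5′ to 3′) show how the copies differ upstream, with site II elements (TGGGCC or TGGGCT, either strand) in capitals, a motif known from plant ribosomal protein genes:
RPS6A, chr4:15347805-15348054: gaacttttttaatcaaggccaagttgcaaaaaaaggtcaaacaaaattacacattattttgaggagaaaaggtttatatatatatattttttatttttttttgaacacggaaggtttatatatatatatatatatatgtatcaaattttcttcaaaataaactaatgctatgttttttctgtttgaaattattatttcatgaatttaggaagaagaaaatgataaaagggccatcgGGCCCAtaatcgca
RPS6B, chr5:3260255-3260504: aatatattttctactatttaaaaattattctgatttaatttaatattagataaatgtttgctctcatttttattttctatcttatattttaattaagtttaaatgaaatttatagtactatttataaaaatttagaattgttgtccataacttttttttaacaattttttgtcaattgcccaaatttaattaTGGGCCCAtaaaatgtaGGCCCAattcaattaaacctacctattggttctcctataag

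RPS6A has 1 site II match, which begins 14 bases before the gene start. RPS6B has 3, at 58, 56 and 41 bases, of which the 2 farthest overlap as a palindrome. Neither holds a telo box (AAACCCTA, either strand), another motif known from such genes.

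The copies of RPS6 stood closer together in hb34. RPS6A (gene-AT4G31700) had 167.5, 158 and 158 CPM in hb34, against 258, 227 and 197.5 CPM in WT (log2 fold change -0.50, SE 0.122, edgeR adjusted p = 0.054). RPS6B (gene-AT5G10360) had 169.5, 178.5 and 167 CPM in hb34, against 196.5, 181 and 173 CPM in WT (log2 fold change -0.10, SE 0.0994, edgeR adjusted p = 0.539). RPS6A was lower in all hb34 libraries, while RPS6B overlapped between genotypes. The log2 ratio of RPS6A to RPS6B, in CPM per kilobase of exon, was -0.08 ± 0.08 in hb34 and 0.32 ± 0.10 in WT (SD, n = 3 each), a difference of -0.39, and leaving out each library in turn, also chosen after seeing the data, moved it between -0.45 and -0.35. RPS6A passed in DESeq2 (adjusted p = 0.0147).

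Both RPS6 genes have nearly the same exon length, 1180 bases for RPS6A and 1192 for RPS6B. With the exon length term the log2 fold changes were -0.29 for RPS6A and 0.11 for RPS6B, neither past the threshold. The other pairs without overlap differed by -0.11 each, RPL7aA against RPL7aB and RPS18A against RPS18C.

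**Figure D4:**
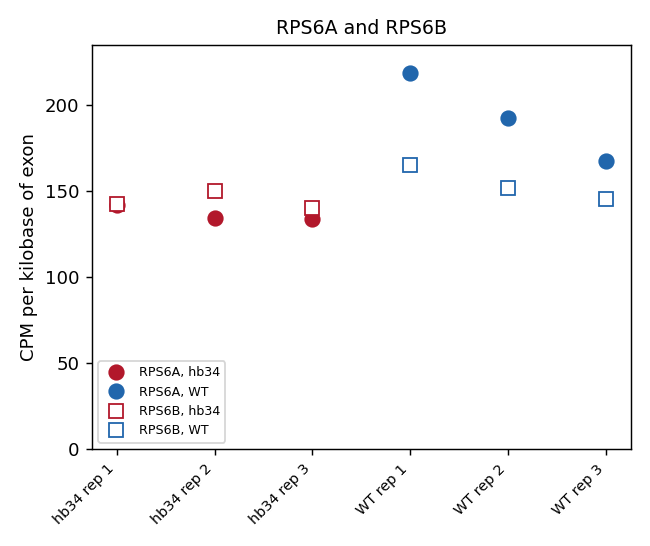
Level of both copies of RPS6 in each library (horizontal axis), in CPM per kilobase of exon, with filled circles for the A copy, open squares for the B copy, hb34 in red and WT in blue. RPS6A lies at or below RPS6B in hb34 but above it in every WT library.

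Summing all tested copies of a protein, members and others, gave 29 proteins. The summed CPM in hb34 was below that in WT for 28 of them, with a median of 77% and a range of 67.9% for L36 to 111% for L4. For 21 proteins all hb34 libraries lay below all WT libraries, for 8 the groups overlapped, and for 0 they lay above. Of all tested genes, taken singly, 17.5% lay below WT in this way and 17.8% above. S21 had 159.9, 175.5 and 162 CPM over its 2 tested genes in hb34, against 273, 253 and 204 CPM in WT. S6 had 337, 337 and 325 CPM in hb34, against 454, 408 and 371 CPM in WT, and lay at 81% of WT although RPS6B alone was at 93.5%. L4 had 471, 486 and 407 CPM in hb34, against 381, 417 and 433 CPM in WT, so its groups overlapped.

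Of 37 further genes for these same proteins, 30 were tested, with 1 lower, 0 higher, 27 negative fold changes and a median of -0.34. The 1 lower call is near the 2.5% of all tested genes. DESeq2 called 5 of the 30 lower, against 5.81% of all genes, and limma-voom called 0, against 2.33%. At an unadjusted edgeR p under 0.05, 17 were lower and 0 higher, against 13.3% lower among all tested genes. All hb34 libraries lay below WT for 15 (50%) and above for 0, against 17.5% and 17.8%. The edgeR count was 5 when WT replicate 3 was dropped (1.47% of all genes lower), 2 for hb34 replicate 2 (2.77%) and 0 for each of the other libraries (0.011% to 1.29%). The lower gene in edgeR was the S10 gene AT5G52650, with 136, 136 and 116 CPM in hb34, against 199, 188 and 166 CPM in WT (log2 fold change -0.51, SE 0.120, edgeR adjusted p = 0.0495). It is a copy of RPS10B of the 39, as is AT4G25740 (log2 fold change -0.54, edgeR adjusted p = 0.0555). Of 152 genes for cytosolic ribosomal proteins with no gene among the 39, 141 were tested. Of these 4 fell, 3 rose and 136 had a negative fold change, with a median of -0.43, and the calls are near the 2.5% lower and 3.77% higher among all tested genes. At an unadjusted edgeR p under 0.05, 92 of the 141 were lower and 4 higher, against 13.3% lower among all tested genes. All hb34 libraries lay below WT for 76 (53.9%) and above for 4, against 17.5% and 17.8%. The lower calls numbered 40 with DESeq2 (5.81% of all genes lower), 14 with upper quartile scaling (3.43%), 25 without WT replicate 3 (1.47%) and 4 without hb34 replicate 2 (2.77%). They numbered 0 when any other library was dropped or with the block (0.011% to 1.29%). The higher calls numbered 0 when WT replicate 1 or 2 was dropped and with the block, where 1, 1 and 2 of all genes rose. They numbered 2 or 3 when any other library was dropped. The 4 that fell were AT4G31985 of L39 (log2 fold change -0.81), AT4G25890 of the stalk protein P3 (-0.65), the RACK1 gene AT1G48630 (-0.56) and AT1G04270 of S15 (-0.45). The 3 that rose were AT2G05220 (0.77) and AT2G04390 (0.72) of S17 and AT2G01250 (0.69) of L7. All 3 lie in the first 2 Mb of chromosome 2, where none of the 39 lies. Without the genes of that stretch and the 39, 522 of 17619 tested genes rose, against 675 of all 17905. With the exon length term the medians were -0.08 for the further copies and -0.12 for the genes of other proteins.

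Many nuclear genes for the plastid ribosome fell. Of 37 listed nuclear genes for plastid ribosomal proteins 36 were tested, 25 fell, 0 rose, against 2.5% lower among all genes, and the median log2 fold change was -0.54. PSRP3/1 had 169.6, 162 and 175 CPM in hb34, against 323, 290.0 and 300.4 CPM in WT (log2 fold change -0.85, SE 0.0973, edgeR adjusted p = 0.0104), and RPL21C had a log2 fold change of -0.66. The count of 25 depended on the libraries, as did the calls over all genes. It was 0 when WT replicate 1 or WT replicate 2 was dropped and with the replicate block. In those runs 0.011%, 0.0164% and 0.0168% of all genes were lower, and the plastid median was -0.51, -0.52 and -0.54. The count was 3 when hb34 replicate 3 was dropped (0.632% of all genes lower), 10 for hb34 replicate 1 (1.29%), 20 for WT replicate 3 (1.47%) and 24 for hb34 replicate 2 (2.77%). With the exon length term 2 of the 36 fell, against 1.3% of all genes, and the median was -0.30. The difference between plastid and cytosolic ribosomal proteins was not tested.

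Genes that build and run the ribosome gave other values. Of 21 ribosome biogenesis genes 3 rose, 0 fell and 19 had a positive fold change, with a median of 0.29, or 0.05 without hb34 replicate 2. Among all tested genes 3.77% rose. The count was 0 when any WT library was dropped and with the replicate block, 1 when hb34 replicate 3 was dropped, and 3 for each of the other hb34 libraries. Of all genes 1, 1 and 502 rose without WT replicates 1, 2 and 3, and 2 rose with the block. The 3 were the nucleolin gene NUC2 (log2 fold change 2.1), the Pumilio protein gene APUM24 (1.02) and the pre-rRNA processing gene RRP5 (1.3), with exon lengths of 2252, 2265 and 6112 bases, and 2 of the 21 rose with the exon length term. Of 23 translation factor genes 2 rose, EIF3A (0.82) and EIF4G (0.93), 0 fell and the median was 0.05. Here 0 were called when WT replicate 1 or 2 was dropped, with the block and with the exon length term, 2 when hb34 replicate 2 was dropped, and 1 when any other library was dropped. Of 7 genes of TOR signalling, which is known to set ribosomal protein synthesis, 4 had a positive and 3 a negative fold change, with a median of 0.02. In edgeR and limma-voom 0 passed, and 2 rose in DESeq2, which called 9.27% of all genes higher. TOR and S6K2 were higher at an unadjusted edgeR p under 0.05, as were 2948 of all 17905 tested genes. TOR had 30.9, 48.4 and 18.7 CPM in hb34, against 10.6, 11.7 and 16.3 CPM in WT (log2 fold change 1.34, SE 0.344, edgeR adjusted p = 0.0593), and S6K2 had 8.10, 45.5 and 14.1 CPM in hb34, against 6.31, 8.84 and 4.91 CPM in WT. Both were highest in hb34 replicate 2, the groups of S6K2 overlapped, and TOR has 8200 bases of exon.

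**Figure D5:**
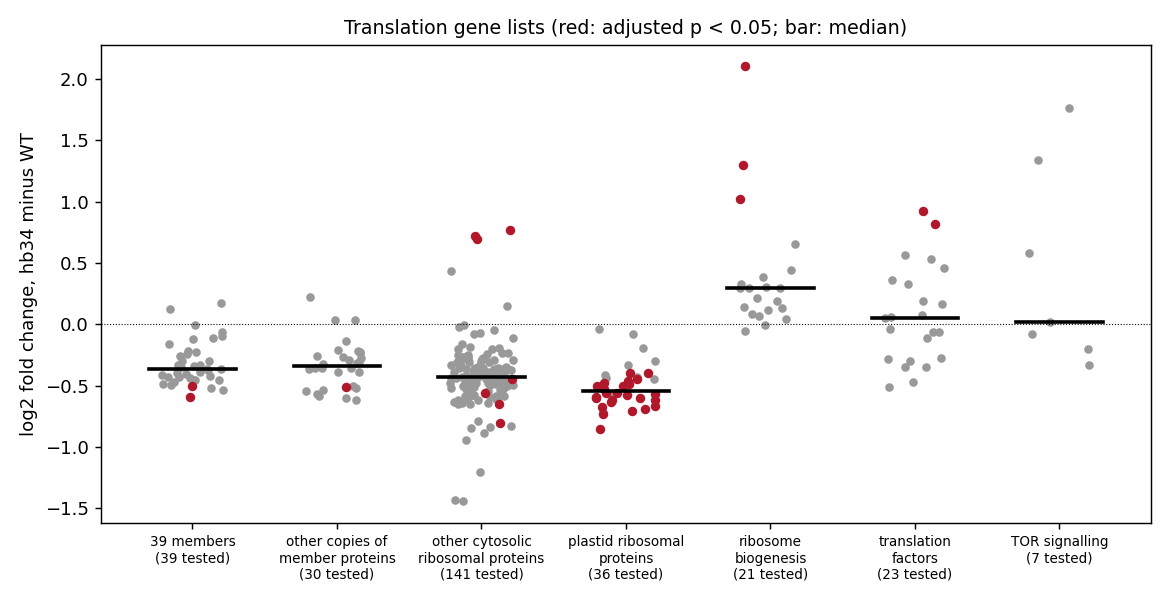
Log2 fold change, hb34 minus WT (vertical axis), of the tested genes of each list, with a bar for the median and red for an adjusted p under 0.05. The 39 genes have a median of -0.37, the plastid ribosomal proteins -0.54 and the ribosome biogenesis genes 0.29.

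Upstream of the 39 genes, site II elements were common. Within 250 bases before the gene start 25 of 39 genes (64.1%) had at least 1 site II match, against 19.2% of 27443 protein-coding genes, and 4 (10.3%) had a telo box, against 4.51%. The genes with a telo box included RPL13B, RPL28A and RPS9B, 3 genes had both motifs and 13 had neither. RPS21B had neither, and RPL28A had a telo box and no site II match. Some of these upstream stretches run into another gene, by 160 bases for RPL28A and 110 for RPS21B. Those of RPP0B and RPS13A lie in another gene over all 250 bases. The median log2 fold change was -0.34 for the 25 genes with a site II match and -0.41 for the 14 without. Among the further copies 73% had a site II match and 37.8% a telo box, and among plastid ribosomal protein genes 35.1% and 10.8%.

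Counts of some genes are uncertain. For RPL9B 50.8% of the 100-base stretches of its exons also occur in its copy AT1G33140, and how reads with several matches were counted is not stated. RPL18C overlaps AT5G27860 and AT5G04545 on the other strand by 256 exon bases in all, and 11.1% of its stretches are shared. RPP0B shares 100 exon bases with AT3G09210 on the same strand, and RPL5B shares 0.769% of its stretches. The other 35 genes share 0 stretches of that length, so their copies can be told apart by such reads.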

How the data were processed

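RNA sequencing measured transcripts in 3 hb34 and 3 WT libraries, grouped by sample title. The authors deposited raw counts per gene over exons, 1 table a library, per the file headers. The submitters' processing notes name HISAT2 2.1.0, DESeq2 1.30.1 and TAIR10 but give them no role, and neither the counting program nor its strand setting is stated. Coordinates and upstream sequences are from RefSeq, TAIR10.1.

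The test was the quasi-likelihood test of edgeR 4.0.16 (R 4.3.3, legacy FALSE, genotype alone in the model) on TMM-scaled counts after filterByExpr at a minimum count of 10 and a minimum total of 15. P-values were adjusted by Benjamini-Hochberg across the 17905 genes kept, at 0.05. DESeq2 1.42.0 and limma 3.58.1 (voom), other scalings, filters and dispersions, a replicate block, each library left out and an exon length offset (lowess span 0.3) were alternatives. The scripts were tested on simulated data. Counting error at these depths is small beside the spread between libraries, and no 2 libraries agree within sampling noise.

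The 39 genes and the lists were chosen with earlier results of these data known. From the lists, 3 loci were dropped because their RefSeq names or products went against the list. The genes named are those past the threshold, the 4 highest and 4 lowest fold changes, the 3 highest and 3 lowest levels, families with several of the 39 genes, and the 2 smallest p of each list; other genes were named after their values were seen, because they belong to a count or illustrate a role. No gene set test was run. Values of 2 of the 39 genes, which stay in the counts and medians, are not reported here.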

Additional observations from a re-analysis of the deposited data

How the results depend on the processing

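The number of ribosomal protein genes called lower was 2, and 0 were called higher in every alternative run. It was 12 with DESeq2 (5.81% of all genes were lower there), 6 with upper quartile scaling (3.43%), 1 each with library size only (1.95%), without a filter (1.64%) and with legacy dispersions (2.38%), and 0 with the exon length term (1.3%), against 2.5% in the analysis as reported; leaving out each library in turn it ranged from 0 to 5 (5 when WT replicate 3 was left out, with 1.47% of all genes lower, 2 for hb34 replicate 2, with 2.77%, and 0 for each of the others, with 0.011% to 1.29%). The median log2 fold change of the 39 genes was -0.46 with upper quartile scaling and -0.14 with the exon length term, and ranged from -0.41 to -0.30 with each library left out. Calls over all genes numbered 1122, against 2695 with DESeq2, 560 with the exon length term and 3 to 1356 with each library left out. Replicates with the same number had negatively correlated deviations from the mean of their genotype (-0.097, -0.115 and -0.263). With 3 libraries a genotype this cannot show whether the numbers stand for shared batches or days. With the replicate block 0 ribosomal protein genes and 5 genes in all passed, 0.0168% lower, and the median was -0.36. Signs of genes near 0 turned: with each library left out RPL7aB ranged from -0.17 to 0.015 and RPP0B from -0.13 to 0.011. With the exon length term signs also turned for genes farther from 0. RPL9B went from -0.23 to 0.046, RPL7aA from -0.22 to 2e-04 and RPL19A from -0.16 to 0.071. RPL7aB was then 0.096, RPP0B 0.05 and RPS6B 0.11. The cause of these shifts between alternatives was not tested.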
